A study of Mus musculus with 15 samples.

Results

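Nucleotide excision repair is described here through 10 genes of damage recognition, unwinding and incision: Xpc, Xpa, Ddb1, Ddb2, Ercc1, Ercc2, Ercc3, Ercc4, Ercc5 and Ercc6. They were chosen by name from the 24027 gene symbols that the 4 deposited tables share, and all 10 were found and tested in every table. RNA was sequenced from the skin of female mice of the hairless strain SKH1, aged 6 to 8 weeks when 500 J/m2 of ultraviolet B began on 5 days per week for 10 weeks to raise actinic keratoses. There were 5 groups of 3 libraries: 4 skin sites (lesional, perilesional, non-lesional and not exposed to UV) from mice on 0.25 g of placebo cream, and lesional skin of mice given 0.25 g of GZ21T cream, both creams on 5 days per week. All 15 libraries carry the same strain, sex and disease labels, so the placebo sites, non-UV-exposed skin included, belong to lesion-bearing mice. In the file headers the unexposed group is named back, so body site and exposure cannot be told apart in comparisons with it. The labels number the placebo libraries Control 1 to 3 at each of the 4 sites, so the sites may come from the same mice. Comparisons between placebo sites are given here without that pairing, which the tables do not allow to be used. Whether each library of a group is from its own animal is not stated, and the p-values cover the spread among these libraries only, which may be technical. The libraries hold whole skin, and in such tissue fewer cells of a type and less RNA per cell cannot be told apart.

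Ultraviolet B joins neighbouring pyrimidines in DNA, and nucleotide excision repair is the route by which placental mammals remove these photoproducts. XPC, with RAD23 proteins and centrin, finds the distorted helix anywhere in the genome, and the DDB1-DDB2 complex hands it the dimers that distort the helix little. ERCC6, also called CSB, starts repair where RNA polymerase II has stalled on damage in a transcribed strand. Both branches then use the helicases ERCC3 (XPB) and ERCC2 (XPD) of the transcription factor TFIIH to open the helix and XPA to verify the damage. The nucleases ERCC1-ERCC4 (XPF) and ERCC5 (XPG) cut the strand on the 5′ and the 3′ side, and DNA polymerases and ligases fill the gap. Inherited loss of many of these proteins causes xeroderma pigmentosum, with sunlight-induced skin cancer, and loss of ERCC6 causes Cockayne syndrome.

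The results turn on 4 members, Xpc, Ercc4, Ercc5 and Ercc6, whose RNA was lower in lesions than in non-UV skin. In the GENCODE annotation of GRCm38, Xpc lies on chromosome 6, 91489305 to 91515888, minus strand, and Ercc4 on chromosome 16, 13109684 to 13150617, plus strand. Ercc5 lies on chromosome 1, 44147744 to 44181260, plus strand, and Ercc6 on chromosome 14, 32513521 to 32580990, plus strand. Windows of the RefSeq promoter table for GRCm38.p6 were used for 7 of the 10 members, among them Ercc4, Ercc5 and Ercc6. Because these genes were lower together, their upstream stretches are shown, 5′ to 3′ on the plus strand and ended at the base before the annotated gene. The windows are chr16:13109486-13109683 for Ercc4, chr1:44147494-44147743 for Ercc5 and chr14:32513271-32513520 for Ercc6, and capitals mark matches to the motifs named next.
Ercc4: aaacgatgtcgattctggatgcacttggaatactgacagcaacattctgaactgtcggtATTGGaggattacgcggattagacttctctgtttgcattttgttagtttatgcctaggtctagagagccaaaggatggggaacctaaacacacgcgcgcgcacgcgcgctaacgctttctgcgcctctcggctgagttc
Ercc5: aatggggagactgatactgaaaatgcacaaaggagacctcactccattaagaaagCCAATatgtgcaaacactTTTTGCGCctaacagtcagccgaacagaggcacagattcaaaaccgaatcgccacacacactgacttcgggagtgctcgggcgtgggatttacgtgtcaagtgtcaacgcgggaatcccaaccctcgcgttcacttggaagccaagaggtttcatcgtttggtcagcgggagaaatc
Ercc6: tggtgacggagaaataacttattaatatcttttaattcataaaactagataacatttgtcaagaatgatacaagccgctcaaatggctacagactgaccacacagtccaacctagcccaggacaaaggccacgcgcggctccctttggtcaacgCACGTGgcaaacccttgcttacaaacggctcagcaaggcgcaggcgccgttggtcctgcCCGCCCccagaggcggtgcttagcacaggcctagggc

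Motifs were searched on both strands of the 250 bases before each start in the RefSeq table. They were the GC box (GGGCGG), the binding site of Sp1-like factors, and the box bound by NF-Y (CCAAT). The E-box (CACGTG), an E2F-like motif (TTTNNCGC), the site of AP-1 (TGANTCA) and the p53 decamer by name were searched as well. Ercc4 held 1 match to the NF-Y box, Ercc5 held 1 to the NF-Y box and 1 to the E2F-like motif, and Ercc6 held 1 to the GC box and 1 to the E-box. No motif of the set was matched in all 3. The NF-Y box was matched in 33.8% of all 32851 promoter windows of this length, the GC box in 32.7%, the E-box in 6.02% and the E2F-like motif in 4.28%. No window of Xpc, Ddb2 or Ercc3 was used, so no motif was searched in these members. The p53 decamer had no match in the windows of the 7 members used, against 7.13% of all windows, and the AP-1 site none against 6.75%. These matches describe letters and not binding.

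The deposited tables give a log2 fold change and a Wald statistic per gene and no value per library, so neither the level in each sample nor the overlap of groups can be shown. The depth of the libraries is unknown, and errors are SEs, computed as the fold change over the Wald statistic, with intervals of 1.96 SE on either side. A gene is called changed where its adjusted p is under 0.05 over all genes tested. SEs of the members lay between 0.17 and 0.36 across the 6 comparisons tested. Of the keratinocyte markers, all 6 basal and all 5 suprabasal genes were tested in every table, although their levels are not in the tables.

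Lesional skin was set against non-UV skin to ask what differs between an actinic keratosis and unexposed skin. Xpc, Ercc4, Ercc5 and Ercc6 fell, and no member was called higher. Of the 10 members 4 changed, all lower, where 18.3% of 15201 genes changed and 8.17% were called lower. The median log2 fold change of the 10 members was -0.41, beside 0.08 over all genes tested. The members spanned -0.87 for Xpc to 0.45 for Ddb1. In the plot of the members among all genes, the 4 called members lie in the lower flank of the distribution and not in its far tail.

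**Figure D1:**
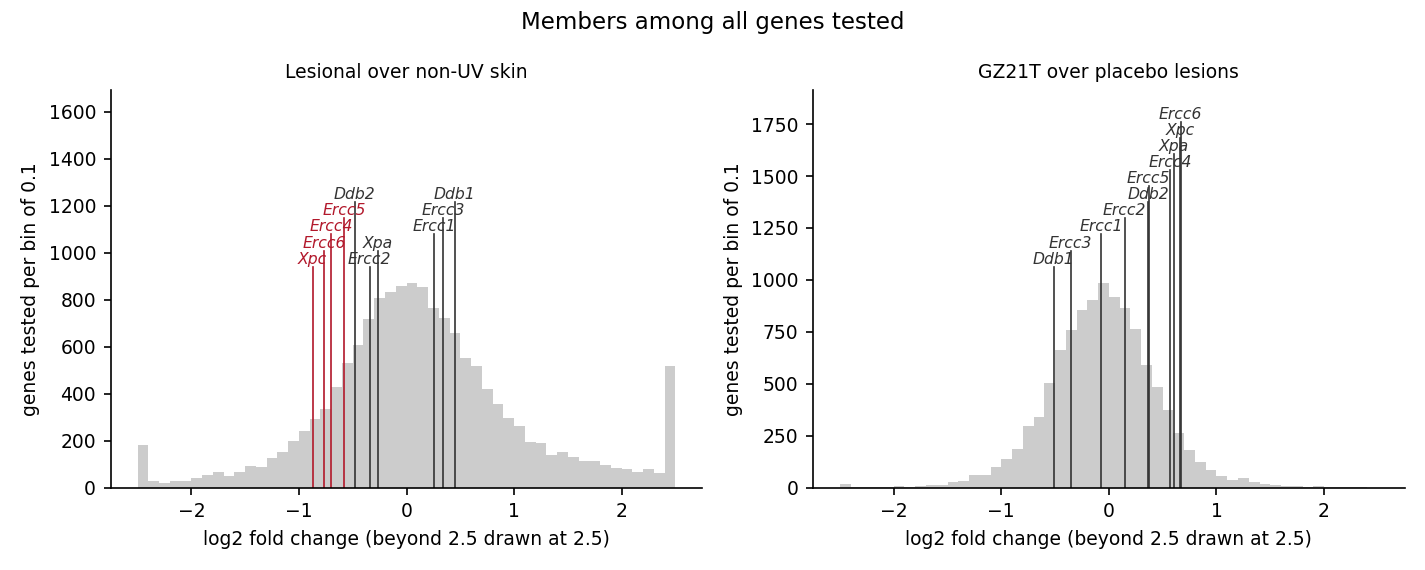
Grey bars count the genes tested per bin of 0.1 in log2 fold change (x axis, values beyond 2.5 drawn at 2.5) in lesional over non-UV skin and in GZ21T over placebo lesions, and lines mark the 10 members, red where adjusted p is under 0.05. In lesional over non-UV skin Xpc, Ercc6, Ercc4 and Ercc5 are red and lie between -0.87 and -0.58, and in GZ21T over placebo lesions no member is red.

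Among the damage recognition genes, Xpc, the sensor of helix distortion, fell by 0.87 ± 0.24 (SE; adjusted p of 0.0039) on the log2 scale in the authors' deposited DESeq2 table. This puts its RNA in lesions at 54.6% of that in non-UV skin, with a 95% interval of 39.6% to 75.5%. Of all genes tested, 10.2% had a lower fold change than Xpc. Ddb2, which binds the dimers, stood at -0.48 ± 0.28 (adjusted p of 0.23) in the authors' deposited table, and its interval ran from -1.03 to 0.07. Its partner Ddb1, which also serves as an adaptor of CUL4 ubiquitin ligases outside repair, stood at 0.45 ± 0.19 (adjusted p of 0.087) in the authors' deposited table. The interval of Ddb1 ran from 0.07 to 0.82, with an unadjusted p of 0.02 by the DESeq2 Wald test. Neither DDB gene passed the test, and their fold changes had opposite signs, a difference between genes that was not tested.

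Ercc6, the start of transcription-coupled repair, fell by 0.77 ± 0.26 (adjusted p of 0.023) in the authors' deposited DESeq2 table, to 58.8% of its level in non-UV skin (interval 41.3% to 83.6%). Its partner in that branch, Ercc8 or CSA, stood at -0.08 ± 0.31 (adjusted p of 0.9) in the authors' deposited table. The TFIIH helicase genes did not pass the test: Ercc2 stood at -0.34 ± 0.24 (adjusted p of 0.33) and Ercc3 at 0.34 ± 0.20 (adjusted p of 0.23) in the authors' deposited table. Xpa, the verifier, stood at -0.26 ± 0.36 (adjusted p of 0.66) in the authors' deposited table and had the widest interval of the 10, from -0.97 to 0.45.

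Of the incision genes, both Ercc4, the catalytic subunit of the 5′ nuclease, and Ercc5, the 3′ nuclease, fell. Ercc4 fell by 0.70 ± 0.23 (adjusted p of 0.017) in the authors' deposited DESeq2 table, to 61.6% of non-UV skin (interval 45.3% to 83.8%). Ercc5 fell by 0.58 ± 0.18 (adjusted p of 0.011) in the authors' deposited table, to 67.0% (interval 52.7% to 85.2%). Ercc1, the non-catalytic partner that ERCC4 needs for its stability, stood at 0.26 ± 0.24 (adjusted p of 0.48) in the authors' deposited table. The subunits of this one nuclease thus had fold changes of opposite sign, and the difference between them was not tested.

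The 4 calls held over all 18800 genes with a p-value, over the 10899 genes tested in every table, and with fold changes centred on the median. The other gene sets kept the p-values and redid only their adjustment. Centring lowered every fold change by 0.081, the direction of these calls. Holding under these settings thus says little. The calls ended when the null spread was taken from the genes themselves. That setting divides each Wald statistic by 1.924 and leaves 14 of 15201 genes called. Xpc then had an adjusted p of 0.9 and the other 3 of 0.93 to 0.94.

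**Figure D2:**
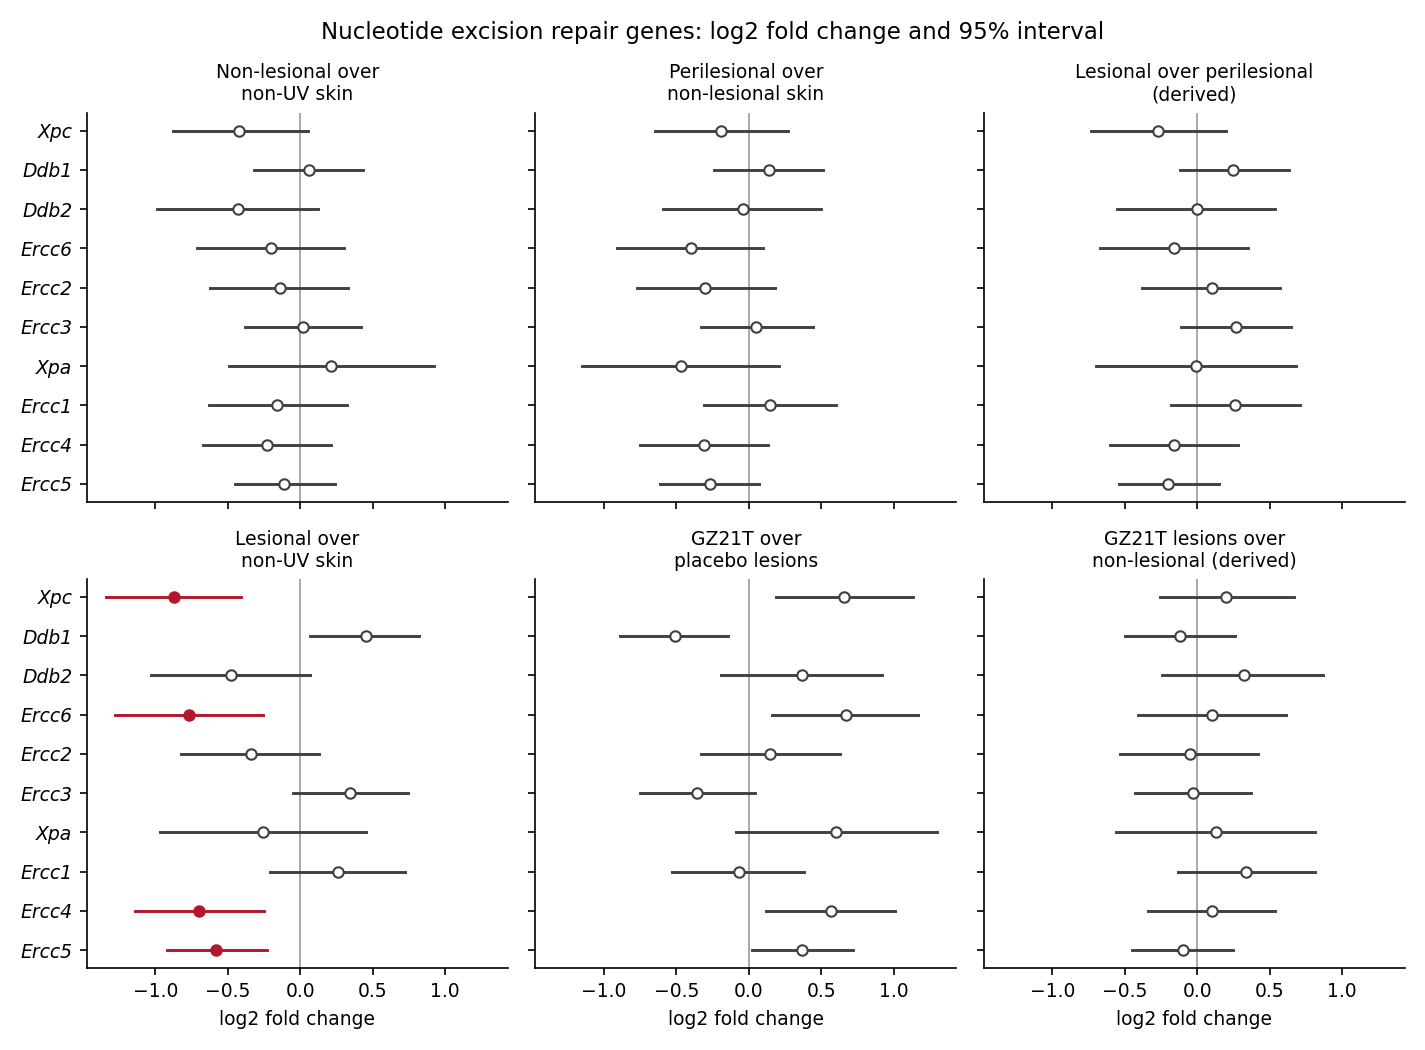
Log2 fold change (x axis, point) and 95% interval (line) of the 10 members in the 4 deposited and the 2 derived comparisons, red and filled where adjusted p is under 0.05. The red genes are Xpc, Ercc6, Ercc4 and Ercc5 in lesional over non-UV skin, and in the 5 other panels no member passed the test.

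The fall in lesions was then followed through the sites between. In non-lesional over non-UV skin 0 of the 10 members changed by the authors' deposited DESeq2 table, where 1.66% of 14124 genes did, and none had an unadjusted p under 0.05, beside 1415 of all genes tested. The members lay between -0.43 and 0.21, with Xpc at -0.42 ± 0.24 and Ddb2 at -0.43 ± 0.28 (adjusted p of 0.59 and 0.7). All 10 intervals stayed inside a log2 change of 1 in either direction, so a 2-fold difference of any member lay outside its interval. In perilesional over non-lesional skin 0 of 10 changed by the authors' deposited DESeq2 table, beside 0.112% of 15201 genes, and again none had an unadjusted p under 0.05, beside 7.83% of all genes. There Ercc6 stood at -0.40 ± 0.26 (adjusted p of 0.76), Ercc4 at -0.31 ± 0.22 (adjusted p of 0.81) and Ercc5 at -0.27 ± 0.17 (adjusted p of 0.76) in the authors' deposited table. Xpa had the lowest value, -0.47 ± 0.35 (adjusted p of 0.82), in the authors' deposited table.

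Lesional over perilesional skin was derived from 3 tables, and 0 of 10 members changed there by the Wald test on this derived contrast, beside 0.533% of 15187 genes, with none at an unadjusted p under 0.05, beside 10.5% of all genes. The members lay between -0.27 for Xpc and 0.27 for Ercc3, and all 10 intervals stayed inside a log2 change of 1. None of the single steps from non-UV to non-lesional, perilesional and lesional skin thus passed the test for Xpc, Ercc4, Ercc5 or Ercc6, while the whole distance did.

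Levels relative to non-UV skin, added up from the deposited fold changes, show how that distance was divided. For Xpc they were -0.42 in non-lesional, -0.61 in perilesional and -0.87 in lesional skin, and -0.21 in GZ21T lesions. Ercc6 had -0.20, -0.61 and -0.77 at the same placebo sites and -0.10 in GZ21T lesions. Ercc4 had -0.23, -0.54 and -0.70, then -0.13 in GZ21T lesions, and Ercc5 had -0.11, -0.38 and -0.58, then -0.21. In all 4 genes the placebo sites were ordered from non-UV down to lesional skin, and no step between neighbours in this order passed the test. These 4 genes were singled out because lesional lay below non-UV skin, so the ends of the order were set by that choice. The sums for perilesional and GZ21T skin have no test, since the tables do not fix their error, and the largest SE the tables allow is 0.25 to 0.37 for these genes.

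Of the other members, Ddb2 had -0.43, -0.48 and -0.48 in non-lesional, perilesional and lesional skin, and -0.12 in GZ21T lesions. Neither its non-lesional nor its lesional value passed the test against non-UV skin (adjusted p of 0.7 and 0.23 in the authors' deposited DESeq2 tables). Ddb1 and Ercc3 were ordered upward from non-UV to lesional skin: Ddb1 had 0.06, 0.19 and 0.45 and then -0.07, and Ercc3 had 0.02, 0.07 and 0.34 and then -0.01. Ercc1 stood at -0.16, -0.01 and 0.26, with 0.18 in GZ21T lesions. Lesional over non-lesional skin, without a test, gave -0.46 for Xpc, -0.57 for Ercc6, and -0.47 for both Ercc4 and Ercc5, with largest possible SEs of 0.25 to 0.37.

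**Figure D3:**
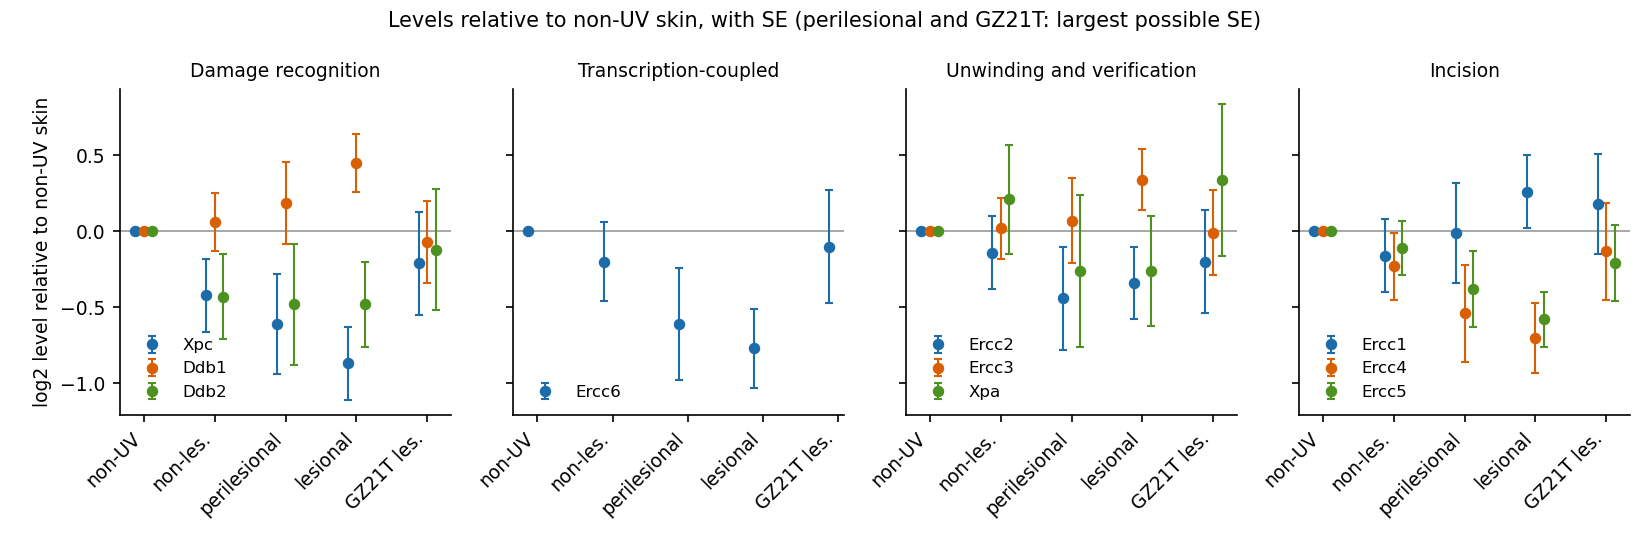
Log2 level relative to non-UV skin (y axis) of each member by group (x axis), with the SE as bars, or the largest possible SE for perilesional and GZ21T skin. Xpc, Ercc6, Ercc4 and Ercc5 are lowest in placebo lesions, at -0.87, -0.77, -0.70 and -0.58, whereas Ddb1, Ercc3 and Ercc1 are highest there, at 0.45, 0.34 and 0.26.

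GZ21T lesions were compared with placebo lesions to ask what the cream changes. No member passed the test: 0 of 10 changed by the authors' deposited DESeq2 table, in which 3.61% of 10899 genes did. At an unadjusted p under 0.05 there were 5 of 10 members, 4 higher and 1 lower in GZ21T lesions, beside 22.9% of all genes. Xpc stood at 0.66 ± 0.24 (adjusted p of 0.079), which is 158% of its level in placebo lesions, with an interval of 114% to 219%, in the authors' deposited table. Ercc6 stood at 0.67 ± 0.26 (adjusted p of 0.1), Ercc4 at 0.57 ± 0.23 (adjusted p of 0.11) and Ercc5 at 0.37 ± 0.18 (adjusted p of 0.19) in the authors' deposited table. Ddb1 stood at -0.51 ± 0.19 (adjusted p of 0.089) in the authors' deposited table, the lowest of the 10.

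The remaining 5 members did not pass either. In the authors' deposited table Xpa stood at 0.60 ± 0.36 (adjusted p of 0.3), Ddb2 at 0.37 ± 0.28 (adjusted p of 0.44) and Ercc3 at -0.36 ± 0.20 (adjusted p of 0.28). Ercc2 and Ercc1 were nearest to 0, at 0.15 ± 0.24 and -0.07 ± 0.23 (adjusted p of 0.77 and 0.89), in the authors' deposited table. The median over the 10 members was 0.37, beside -0.06 over all genes tested. The placebo lesions enter both this comparison and that with non-UV skin, with opposite sign, so the values of the 2 comparisons are not independent.

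GZ21T lesions were also set against placebo non-lesional skin, a derived contrast that leaves the placebo lesions' levels out. By the Wald test 0 of 10 members changed, and 0 of 15187 genes did, 0% of those tested. At an unadjusted p under 0.05 there were 0 members and 3.31% of all genes. The members lay between -0.12 for Ddb1 and 0.34 for Ercc1, with Xpc at 0.20 ± 0.24, Ercc6 at 0.10 ± 0.26, Ercc4 at 0.10 ± 0.23 and Ercc5 at -0.10 ± 0.18 (adjusted p of 1 for each). All intervals lay between -0.56 and 0.87, so a 2-fold difference of any member was outside them.

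The partners of these proteins were taken from 4 lists of 40 further genes of the pathway. In lesional over non-UV skin 8 of the 40 were higher and 1 lower by the authors' deposited DESeq2 table, with a median of 0.48, while the 10 members had 0 higher and 4 lower. The background was 10.2% of genes higher and 8.17% lower. Among the 6 recognition partners Rad23b, which stabilises XPC, rose by 0.92 ± 0.22 (adjusted p of 0.001) in the authors' deposited table, and the other 5 did not pass. Of the 8 other TFIIH subunits Gtf2h3 rose by 0.73 ± 0.24 (adjusted p of 0.019) in the authors' deposited table. None of the 6 other genes of transcription-coupled repair passed (0 by DESeq2, with 1 at an unadjusted p under 0.05).

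The gap-filling and ligation genes, which also copy DNA in dividing cells, held most of the rises, with 6 of 20 higher and 1 lower. Pold2, a subunit of DNA polymerase delta, rose by 1.49 ± 0.34 (adjusted p of 0.00052) and Rpa1, of the single-strand binding protein, by 0.82 ± 0.19 (adjusted p of 0.00053) in the authors' deposited table. Rfc2, of the clamp loader, rose by 0.95 ± 0.27 (adjusted p of 0.006) and the clamp gene Pcna by 0.79 ± 0.27 (adjusted p of 0.026) in the authors' deposited table. Lig3, a DNA ligase of short-patch repair named here after its value was seen, fell by 0.39 ± 0.15 (adjusted p of 0.044) in the authors' deposited table. Replication genes moved beside them, with 5 of 8 higher and a median of 1.10, Mcm4, a subunit of the replicative helicase, rising by 1.55 ± 0.39 (adjusted p of 0.0017) in the authors' deposited table. Mki67, a marker of dividing cells, stood at 0.52 ± 0.29 (adjusted p of 0.19) there in the authors' deposited table. The part of cell division in the members' values was not tested.

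In GZ21T over placebo lesions 36 of the 40 partners were tested, and 3 were lower and none higher in the authors' deposited DESeq2 table, with a median of -0.44. The background was 1.31% of genes higher and 2.29% lower. Pold2 fell by 1.60 ± 0.35 (adjusted p of 0.0036), Rpa1 by 0.70 ± 0.19 (adjusted p of 0.021) and Rad23b by 0.70 ± 0.22 (adjusted p of 0.047) in the authors' deposited table. Of the replication genes 0 of 8 were called, with all 8 fold changes negative and a median of -1.02. At an unadjusted p under 0.05 there were 6 of the 8, beside 22.9% of all genes tested. Pcna stood at -0.62 ± 0.27 (adjusted p of 0.15) and Ercc8 at -0.69 ± 0.33 (adjusted p of 0.19) in the authors' deposited table. In non-lesional over non-UV, perilesional over non-lesional and lesional over perilesional skin 0 of the 40 changed by the Wald tests. The same held in GZ21T lesions over non-lesional skin.

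**Figure D4:**
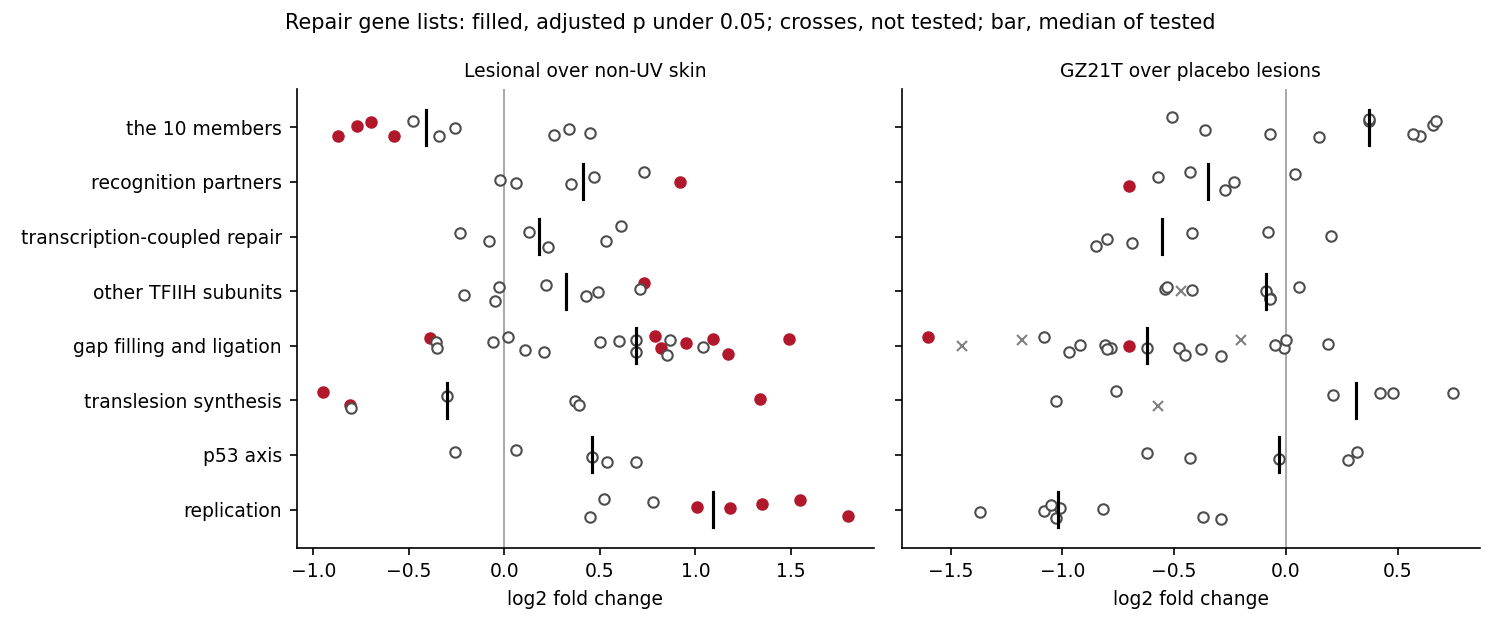
Log2 fold change (x axis) of the 10 members and of the genes of 7 lists (rows) in lesional over non-UV skin and in GZ21T over placebo lesions, red where adjusted p is under 0.05, crosses for genes without an adjusted p, and a bar at the median of the tested genes. In lesional over non-UV skin the members have a median of -0.41 and the gap-filling genes one of 0.69.

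Genes for copying past photoproducts left unrepaired were called in both directions in lesional over non-UV skin, with 1 of 7 translesion genes higher and 2 lower. Rev3l, the catalytic subunit of polymerase zeta, fell by 0.95 ± 0.18 (adjusted p of 2.7e-05) and Rev1 by 0.81 ± 0.19 (adjusted p of 0.00065) in the authors' deposited DESeq2 table. Rad18, the ligase that marks PCNA for translesion synthesis, rose by 1.34 ± 0.34 (adjusted p of 0.0018) in the authors' deposited table. Polh, the polymerase lost in the variant form of xeroderma pigmentosum, stood at 0.37 ± 0.24 (adjusted p of 0.29) there and at -0.76 ± 0.25 (adjusted p of 0.053) in GZ21T over placebo lesions, in the authors' deposited tables. Of the 5 genes of the p53 axis, which in human cells raises XPC and DDB2 after damage, 0 changed in lesional over non-UV skin by DESeq2, with 0 at an unadjusted p under 0.05. Trp53 stood at 0.46 ± 0.30 (adjusted p of 0.3), Cdkn1a at 0.54 ± 0.31 (adjusted p of 0.21) and Mdm2 at -0.26 ± 0.25 (adjusted p of 0.49) in the authors' deposited table.

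Markers of other cells moved in lesional over non-UV skin as well. Endothelial genes were higher for 2 of 4, neutrophil genes for 2 of 3 tested, sebaceous genes for 3 of 4 tested and red blood cell genes for 1 of 4 tested, with none lower. The 2 called genes of the neutrophil list were S100a8 and S100a9, whereas Csf3r stood at 0.59 ± 1.05 (adjusted p of 0.74) in the authors' deposited DESeq2 table. Whether the RNA of S100a8 and S100a9 came from neutrophils was not tested. T cell genes were higher for 1 and lower for 2 of 4, and hair follicle genes lower for 1 of 5, with a median of -2.76. Basal keratinocyte genes were higher for 1 and lower for 1 of 6, with a median of -0.06, and suprabasal genes lower for 1 of 5. Of the skeletal muscle, fibroblast, adipocyte and macrophage genes 0 of 5, 0 of 5, 0 of 4 and 0 of 3 changed, with medians of 2.04, 1.00, -1.79 and 0.49. In GZ21T over placebo lesions suprabasal genes were higher for 2 of 5, with a median of 1.27, and red blood cell genes were lower for 2 of 2 tested. Of these Hba-a1, a haemoglobin gene, fell by 5.33 ± 1.45 (adjusted p of 0.023) in the authors' deposited DESeq2 table, and no size is given for Hba-a2, whose fitted fold change is too large to be read as one. No gene of the other 10 marker lists was called there. The 2 neutrophil genes tested, S100a8 and S100a9, had a median of -3.17, both at an unadjusted p under 0.05. Csf3r and Retnlg had no adjusted p in that comparison. Hair follicle genes had a median of 2.05 (4 tested, 1 at an unadjusted p under 0.05). In perilesional over non-lesional skin hair follicle genes were lower for 1 of 5, with a median of -4.34. Sebaceous genes were higher there for 1 of 4 tested, with a median of 2.66, and no gene of the other marker lists was called. Hair follicle genes had medians of -2.06 in non-lesional over non-UV and 3.55 in lesional over perilesional skin, with 0 of 5 called in each. The part of these cell types in the members' values was not tested.

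Xpc had the smallest adjusted p of the members, and its levels in the 4 groups relative to non-UV skin were compared with those of the other 10898 genes tested in every table. The nearest by root mean square difference over these 4 values were Rsf1 and Habp4 (0.060 each), Csad (0.061) and Lrrc45 (0.063). Of the members Ercc6 came nearest, at 0.132 and rank 119, then Ercc4 at 0.137 and rank 133, Ddb2 at 0.211 and rank 524, and Ercc5 at 0.240 and rank 739. Ddb1 was farthest, at 0.809 and rank 7139. All genes share the same libraries in this ranking, and it is a description.

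The 4 members that fell differ from the others in annotation only in part. Ercc6 has the longest span of the 10, 67.5 kb, and the longest coding transcript, 8423 bases. Ercc4 spans 40.9 kb, Ercc5 33.5 kb and Xpc 26.6 kb, with longest coding transcripts of 3480, 3907 and 3634 bases. Xpa spans 41.0 kb with a transcript of 1241 bases, Ddb1 24.5 kb with 4459 bases and Ercc1 11.7 kb with 1375 bases, and none of these was called. No other annotated gene overlaps Xpc, Ercc4, Ercc5, Ercc6 or Ercc3. A gene on the opposite strand overlaps Ddb1 (Tkfc, 328 bases), Ddb2 (Acp2, 2527 bases), Ercc1 (Cd3eap, 511 bases), Xpa (Ncbp1, 17057 bases) and Ercc2 (Klc3, 1258 bases). Ercc2 also has an antisense transcript, Gm26852, over 10499 bases. The library kit keeps the strand, but whether counting used it is not given in the sources used here, so the values of these 5 genes are uncertain to that extent.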

How the data were processed

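Per the labels' protocols, total RNA of mouse skin was extracted with an RNeasy kit and made into strand-preserving TruSeq libraries. The submitters' processing notes name Trim Galore, DESeq2 and the build GRCm38 (mm10). The aligner, the counter, versions and the model formula were not given in the sources used here. Per the file headers, the authors deposited a log2 fold change, a Wald statistic (a score), a p-value and an adjusted p-value per gene for 4 comparisons. They hold 0 columns of values per library that went unused.

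Symbols turned into dates (25) were removed. The table named for perilesional and lesional skin has a header for lesional over back skin and was used so: it is negative for 271 of the 1195 genes that are at 0 between perilesional and non-lesional skin. The sign of the placebo over GZ21T table was inverted, and of 1003 genes at 0 in lesional over non-UV skin 253 are negative and 0 positive in it as deposited. SEs are the fold change over the Wald statistic. Lesional over perilesional skin and GZ21T lesional over non-lesional skin were sums of deposited fold changes, with variances from the deposited ones, exact if the model holds the group alone. Among 1495 flat genes (size under 0.25 in each table) the SEs relative to lesional over non-UV skin had medians of 1.004, 0.985 and 1.000. P-values of the 2 derived contrasts come from the normal distribution, adjusted by Benjamini-Hochberg over 15187 genes that the authors' filter kept in lesional over non-UV skin. The smaller sets kept in non-lesional over non-UV skin (14124) and in GZ21T over placebo lesions (10899) were not required. In data simulated with the group alone, 44.0% (lesional over perilesional) and 42.0% (GZ21T lesional over non-lesional) of changes of log2 1 were recovered. Such data cannot show whether the deposited model holds the group alone. Python 3.11.15, pandas 2.3.3 and scipy 1.17.1 were used. Coordinates are from GENCODE mouse release 21.

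Named genes are the 10 members, up to 3 called genes per list (those of smallest adjusted p), 7 fixed genes and the 4 nearest to Xpc. Lig3, the Hba genes and the neutrophil genes are named besides these, after their values were seen. The members, lists and tests were chosen with earlier results of these data known.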

Additional observations from a re-analysis of the deposited data

How the results depend on the processing

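Each member's result in the 6 comparisons was recomputed without a low-count filter, over the genes tested in all 4 tables, with a null spread estimated from the genes, centred on the median and, for the derived contrasts, with the largest deposited SE. Only centring on the median alters the fold changes, so direction could not change under the other alternatives. Before any alternative, only 4 member results were called, all in lesional over non-UV skin. A high count of unchanged results was thus largely set in advance. Of 260 such recomputations, 256 kept direction and side of the threshold. The other 4 are Xpc, Ercc4, Ercc5 and Ercc6 in lesional over non-UV skin under the null spread of the genes, where the count of changed members went from 4 to 0. That setting counts any broad real change as noise, and under it 14 genes of the whole table stayed called, against 2785. The count of changed members stayed at 0 in the 5 other comparisons under every alternative run. Genes called over the whole table in GZ21T over placebo lesions went from 393 to 209 without a low-count filter and to 0 with the null spread from the genes, and in non-lesional over non-UV skin from 235 to 126 with that spread. With the same spread they went from 17 to 2 in perilesional over non-lesional skin, from 81 to 12 in lesional over perilesional skin and from 0 to 11 in GZ21T lesions over non-lesional skin. With the largest deposited SE lesional over perilesional skin had 53. Leaving out each replicate was not run, since the tables hold no values per library. No paired analysis was possible because the columns carry no replicate. With SEs up to 0.36, a member's interval reaches about 0.7 on either side, which limits what can be seen of smaller differences.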

Other observations

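Other DNA repair routes were seen beside the excision genes in lesional over non-UV skin. Of 13 base excision repair genes, which remove oxidised and deaminated bases, 1 was higher and none lower, with a median log2 fold change of 0.16: Tdg, a thymine DNA glycosylase, rose by 1.34 ± 0.51 (adjusted p of 0.0495) in the authors' deposited DESeq2 table. Of 8 mismatch repair genes 0 changed by DESeq2, with 2 at an unadjusted p under 0.05 and a median of -0.10. In GZ21T over placebo lesions 0 of 8 tested base excision genes and 0 of 8 mismatch repair genes changed by DESeq2, with 1 and 0 at an unadjusted p under 0.05.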
